A study of Mus musculus with 11 samples.

Results

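The hearts described here are the control hearts of a study of polycystic ovary syndrome (PCOS), a common endocrine disorder of women. They are the samples whose titles name heart and control, 6 of 11 in all, and the 5 PCOS hearts enter none of the values below. Every control heart is from a female mouse labelled wild type whose prenatal treatment was the vehicle, phosphate-buffered saline (PBS); the PCOS mice were exposed before birth to anti-Müllerian hormone. The labels give neither strain nor age, and do not tell whether the 6 samples are 6 mice, so the spread and the p-values below describe these libraries and may be partly technical. Polyadenylated RNA was sequenced, and the deposited unit is FPKM, fragments per kilobase of transcript and scaled to library size. This puts genes of different length on one scale, but their order depends on the transcript length used. A trend of level with length also remained in some libraries, as described below. A level is given as its median over the 6 libraries with the lowest and highest library in parentheses, and a row is a RefSeq transcript of the table.

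Ventricular muscle contracts when calcium released from the sarcoplasmic reticulum binds troponin and lets myosin heads pull on actin filaments. The work is paid for by mitochondria, which fill much of the cardiomyocyte and burn mainly fatty acids, so mRNAs of the contractile filaments, of calcium cycling and of the respiratory chain are known to be abundant in this tissue. Many of these proteins come in closely related copies, or paralogs, of which the adult heart, the fetal heart, the atrium and skeletal muscle use different ones.

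The depth was even. Library totals recovered from the FPKM steps ran from 11867317 to 14176477 reads. Of these, 99.3% to 99.6% lay in rows above 0 in at least 3 libraries, the only rows whose reads were recovered. Of 21878 rows, 10751 had a median of at least 1 FPKM, 4510 of at least 10, 652 of at least 100 and 72 of at least 1000, while 5044 were at 0 in every library. The row with the highest level held 2.93% to 3.49% of a library's summed FPKM, the 10 leading rows 16.7% to 17.9%, and between 135 and 167 rows made up 50% of it. Not analysed here were Xist, Amhr2 and genes of the mitochondrial genome.

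Control 6 stood apart from the other libraries and held liver transcripts. Alb, serum albumin, the main secreted product of hepatocytes, was at 852 FPKM in control 6, from 22550 reads and at rank 98, against 0.186, 0.0699, 0, 0.307 and 1.06 FPKM in controls 1 to 5. All 20 hepatocyte markers measured were highest in control 6, each over 10 times every other library, and their summed level was 2694 FPKM there against 10.03 to 26.9 elsewhere. Fabp1, the liver fatty acid-binding protein, reached 352 FPKM in control 6, and Apoa1, the main protein of high-density lipoprotein, 274 FPKM, with medians of 0.729 and 0.707. In the same library short rows were higher and long rows lower: relative to the median of the other 5 libraries, on the log2(FPKM + 1) scale, rows of up to 1000 bases lay 0.39 higher and rows over 8000 bases 0.32 lower. Across 6817 rows, Spearman's rho between length and this difference was -0.56 in control 6, 0.44 in control 1, 0.40 in control 2 and -0.35 in control 3. The correlation of log levels with the other libraries had a median of 0.978 for control 6 and of 0.989 to 0.993 for the rest. The part of liver transcripts and of length in the levels below was not tested; medians over 6 libraries are used for that reason.

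Controls 2 and 5 differed from the rest in Apoe, apolipoprotein E, a lipid carrier made by macrophages and liver. Its level was 180, 6.04, 158, 98.8, 8.29 and 486 FPKM in controls 1 to 6. Controls 2 and 5 were thus more than 10 times below every other library, although all 6 carry the label wild type, and control 6 was the highest.

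**Figure D1:**
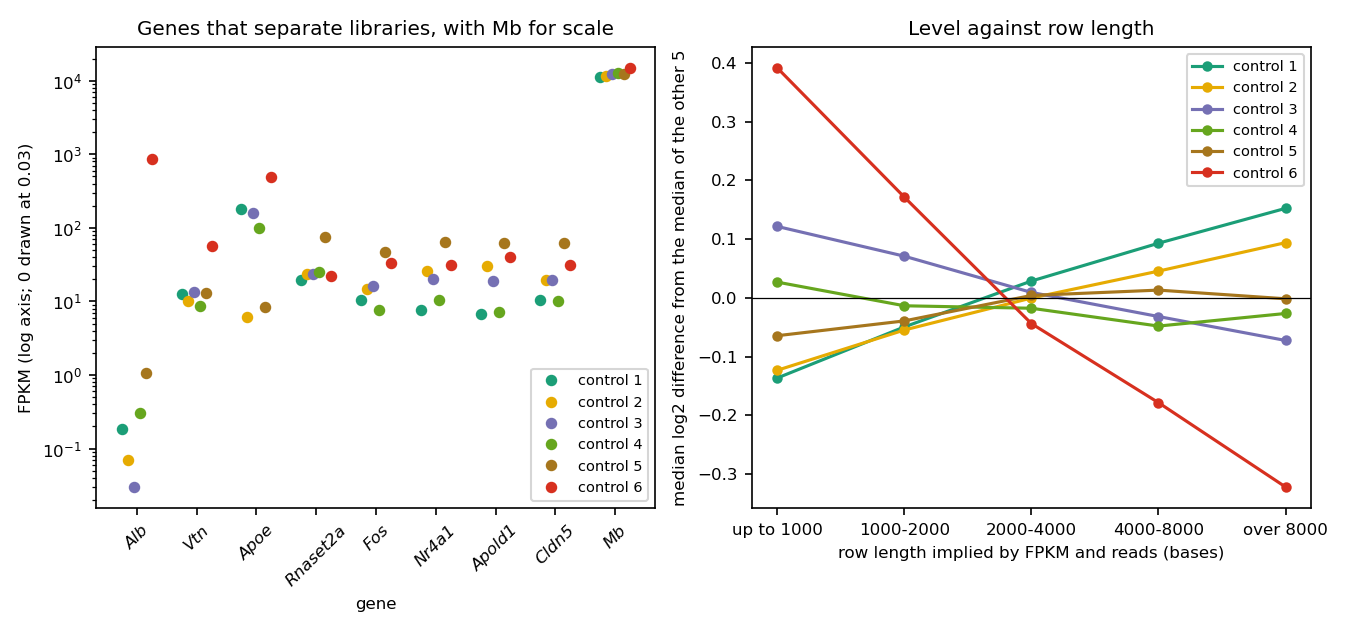
Left, FPKM on a log axis of 8 genes that separate libraries, with Mb for scale; each point is 1 of the 6 control hearts and a value of 0 is drawn at 0.03. Alb and Vtn are high only in control 6, Apoe is low in controls 2 and 5, and the 5 genes from Rnaset2a to Cldn5 are highest in control 5. Right, the median log2 difference of a library from the median of the other 5, by row length in bases; control 6 runs from 0.39 in the shortest to -0.32 in the longest rows.

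The defining markers of heart muscle were present. All 11 measured cardiomyocyte markers were at 1 FPKM or more, with a summed level of 56320 FPKM (52083 to 60000), while the skeletal fast-fibre myosins Myh1 and Myh4 had medians of 0 and the leading fast skeletal muscle marker, Mylpf, was at 1.001 FPKM (0.785 to 1.33). Of the atrial list, Nppa, the atrial natriuretic peptide, was at 615 FPKM (364 to 1474). The other atrial markers were low: Myl4 at 1.53 FPKM (1.35 to 2.56), Dkk3 at 1.06 (0.900 to 1.59), Myl7 at 0.782 (0 to 2.51), and Sln and Bmp10 at medians of 0. Of the 6 atrial markers measured, Nppa alone was above 2 FPKM in the median.

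The highest row, XM_006530186.3, could not be paired with a gene symbol; it was at 15075 FPKM (13827 to 19419) with a length of 959 bases. Mb, myoglobin, the oxygen store of red muscle, followed at 12444 FPKM (11075 to 14901). Then came Actc1, cardiac actin, at 9586 FPKM (8871 to 10923), Tnnt2, cardiac troponin T, at 8368 (7395 to 9825), and Fabp3, the heart fatty acid-binding protein that ferries fatty acids through the cytosol, at 8204 (7414 to 9228). The next places were held by Myl3, the essential light chain of ventricular myosin, at 7805 FPKM, Slc25a4, the mitochondrial ADP/ATP carrier, at 6817, Myh6, alpha myosin heavy chain, at 5870, Tnni3, cardiac troponin I, at 5701, and Tnnc1, troponin C, at 5294. So 6 of the 10 leading rows code for named proteins of the contractile filaments. Ranks 11 to 30 were filled mainly by mitochondrial genes, led by Atp5b, the catalytic subunit of ATP synthase, at 3568 FPKM (3299 to 3688), and Cox4i1 of cytochrome oxidase at 3358 (3123 to 4021). Among them stood Pln, phospholamban, at 2939 FPKM, Tcap, the telethonin of the Z-disc, at 2811, Atp2a2, the SERCA calcium pump, at 2778, Tpm1, tropomyosin, at 2709, Fth1, ferritin heavy chain, at 2460, Tpt1, a translationally controlled protein, at 2173, and Ckm, creatine kinase, at 2104. The last row, Atp5j2, an ATP synthase subunit, was at 1903 FPKM (1686 to 2800).

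The order of these rows was only partly fixed. Of the 29 neighbouring pairs among the 30, 6 kept their order in every library: the unnamed row above Mb, Mb above Actc1, Actc1 above Tnnt2, Myl3 above Slc25a4, Slc25a4 above Myh6, and Tnnc1 above Atp5b. The drop from Tnnc1 to Atp5b, a mean of 0.64 ± 0.26 on the log2 scale (SD, n = 6), was the widest of the 29. Neighbours such as Tnnt2 and Fabp3, or Cox4i1 and Cox6a2, changed places between libraries and do not differ beyond their spread. These orders were chosen on the same values, so they carry no test.

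**Figure D2:**
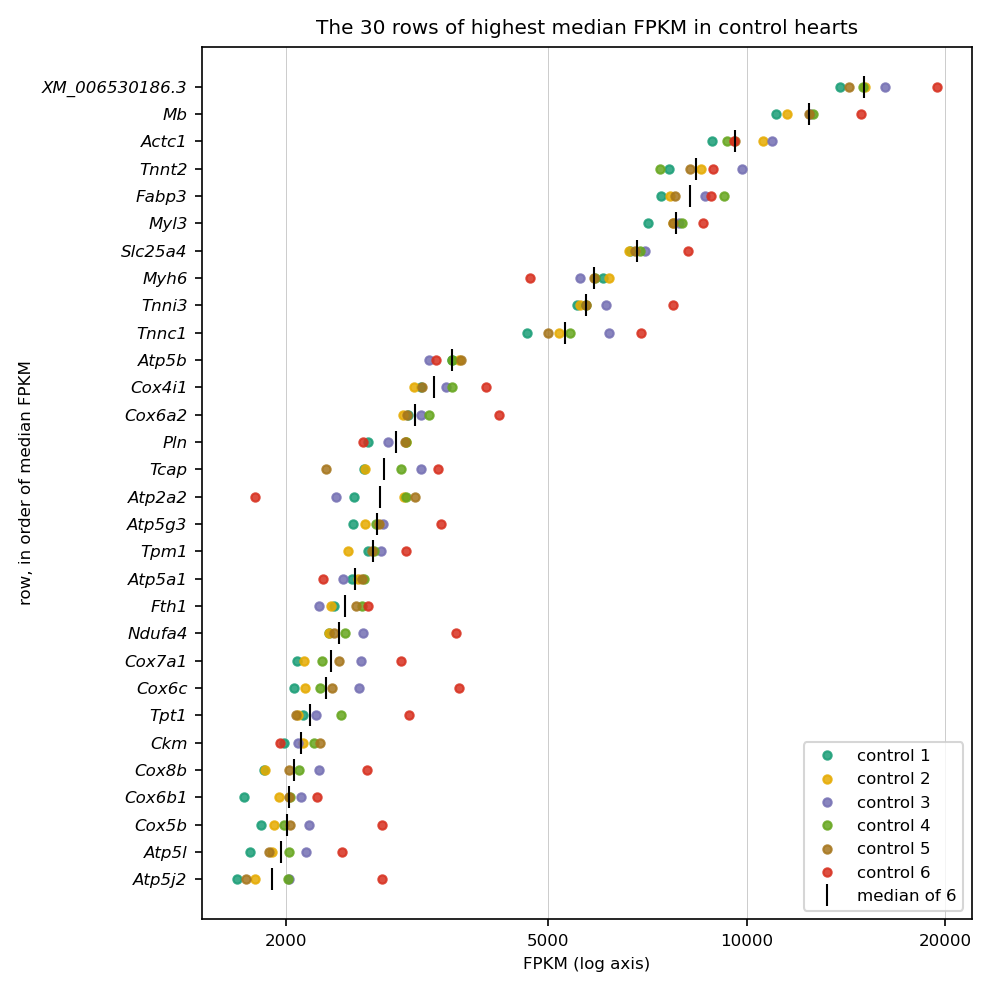
FPKM (log axis) of the 30 rows of highest median; each point is 1 control heart and the black tick is the median of 6. The 10 leading rows lie above the rest, and control 6 (red) is the highest library in most of the short mitochondrial rows, such as Ndufa4 at 3624 FPKM, and the lowest in the long rows Myh6 at 4686 and Atp2a2 at 1794.

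Counted by reads instead of per length, the order was another. Myh6 took 3.70% of the recovered reads and was first, ahead of Mb with 1.64%, Atp2a2 with 1.48%, the unnamed row with 1.45%, Actc1 with 1.41% and Tpm1 with 1.34%. Ttn, titin, the giant spring of the sarcomere, shows the difference most: its row is 107403 bases long, and it ranked 16 by reads but 1319 by FPKM, at 45.1 FPKM (27.7 to 52.4). Cox8b, with a row of 363 bases, ranked 26 by FPKM and 157 by reads.

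By function, 19 rows of thick and thin filament, titin and Z-disc held 10.8% of the summed FPKM (10.5% to 11.5%) and 11.9% of the reads. The 82 nuclear-encoded rows of the respiratory chain and ATP synthase held 16.6% of the FPKM (15.9% to 18.4%, the highest in control 6) but 7.11% of the reads, and supplied 13 of the 30 leading rows. The 76 cytosolic ribosomal protein rows held 5.93% of the FPKM (5.62% to 7.08%, again highest in control 6) and none of the 30 leading places. Rows were assigned to these classes by gene symbol. Rows without a symbol, the highest row among them, held a median of 8.86% of the summed FPKM and were not counted. Each share may therefore be too low.

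To see which paralog dominates, 71 families were drawn up, with 283 members of which 256 had a row. In 48 families every member had a row. The leading member was the same in all 6 libraries in 41 of these 48, and in 42 over the 5 libraries without control 6. It held 90% or more of the family's summed FPKM in 18 families, 60% to 90% in 18 and less than 60% in 12. For families with a member not analysed here, the leader is given only among those measured. Such a member had no row under its symbol and may be among the rows that have no symbol.

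**Figure D3:**
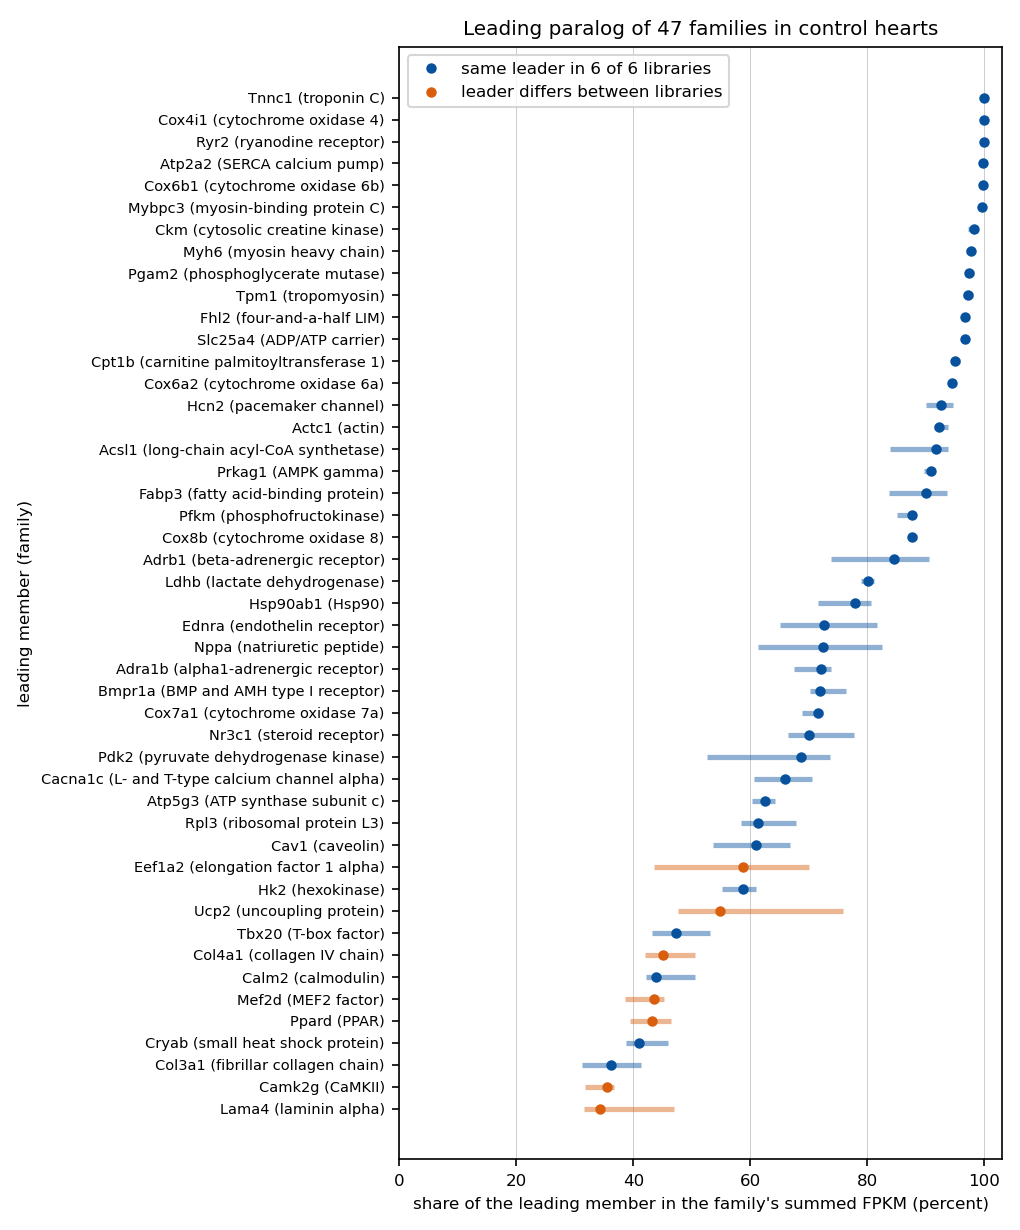
Share of the leading member in the summed FPKM of its family, for 47 of the 48 families with a row for every member; the point is the median and the bar the range over the 6 control hearts. Troponin C, cytochrome oxidase 4 and the ryanodine receptor stand near 100%, and the 7 families whose leader differed between libraries (orange) all have leaders under 60%.

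Separately, 41 pairs of paralogs were compared within each library by the log2 ratio of FPKM + 1, with an exact two-sided sign-flip permutation test over the 6 libraries. The smallest p that 6 libraries allow is 0.0313. In 35 pairs the order was the same in every library, 85.4% of those tested, and for each of these the exact permutation test gave an adjusted p of 0.0366 (Benjamini-Hochberg over 41 pairs). The first named member was the higher in 33 of them; the pairs and their naming order were chosen with earlier results of these data known, so neither count is independent evidence. That value recurs for every pair below said to hold its order in all 6 libraries. Log2 ratios are means ± SD with n = 6, and understate the ratio where a member is near 0.

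**Figure D4:**
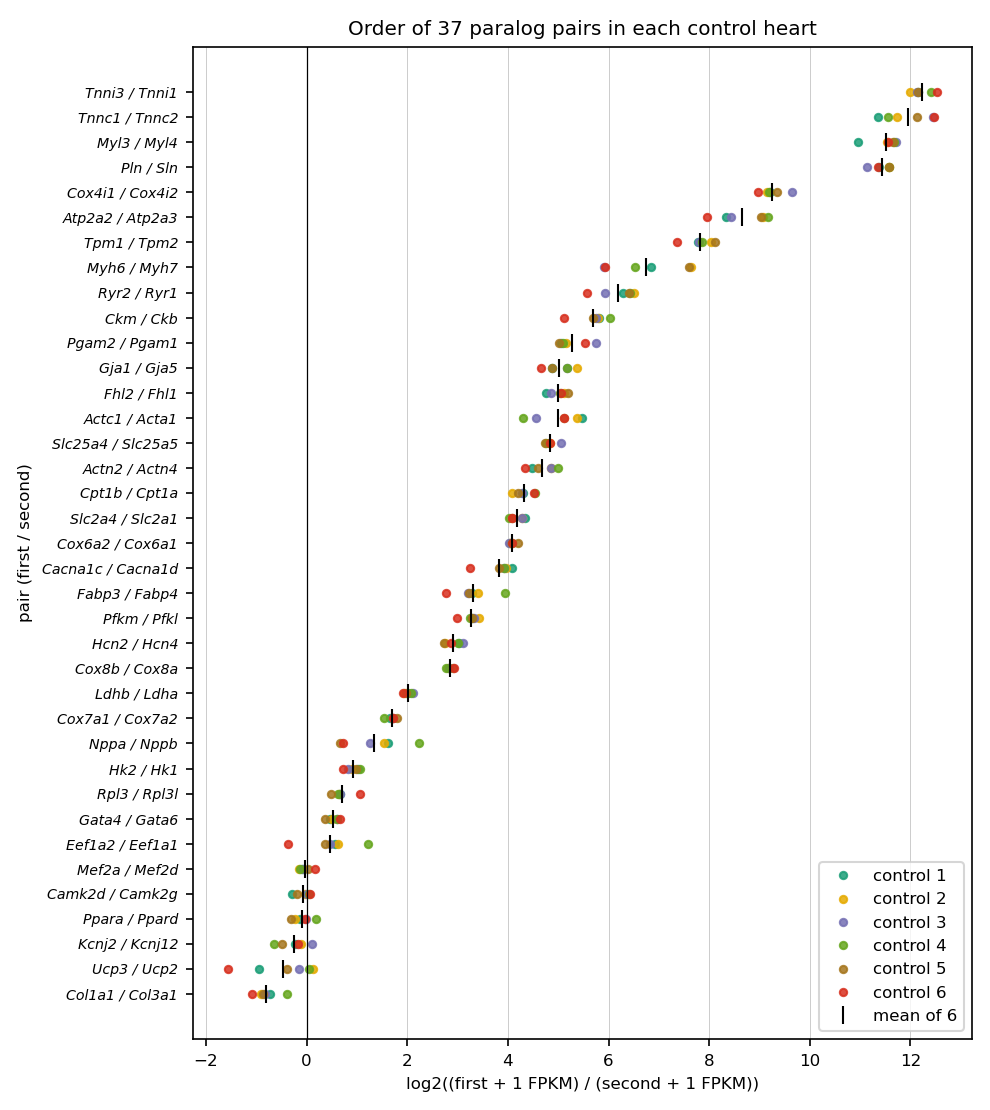
Log2 ratio of FPKM + 1 for 37 of the 41 paralog pairs, first over second named; each point is 1 control heart, the black tick their mean, and the vertical line marks equal levels. The means of troponin I, troponin C and the essential light chains lie at 11.5 or higher, and the 6 pairs whose points fall on both sides of the line lie close to it.

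In the sarcomere the adult cardiac paralog led by a wide margin. Myh6, the fast alpha myosin of the adult mouse ventricle, held 97.7% of the 12 myosin heavy chains (96.8% to 98.4%). Myh7, the slower beta myosin that prevails before birth and rises in many stressed hearts, was at 57.2 FPKM, with 51.6, 30.1, 92.3, 62.8, 29.4 and 76.1 FPKM in controls 1 to 6. Controls 2 and 5 were the lowest and control 3 the highest. Myh6 exceeded Myh7 by 6.74 ± 0.77 on the log2 scale, in 6 of 6 libraries. Other heavy chains were the non-muscle and smooth muscle forms Myh14 at 25.5 FPKM, Myh9 at 21.0, Myh11 at 12.95 and Myh10 at 4.74, and Myh7b, the host of a muscle microRNA, at 14.6.

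Myh6 and Myh7 lie next to each other on chromosome 14, at 54941921 to 54968017 and 54970684 to 54994626 of GRCm38.p6, both on the minus strand. Their promoters are shown because the neighbouring genes differ so far in level, with that of Actc1, the actin that leads its family. Each window is 250 bases before to 50 after a transcription start of the RefSeq table, the first listed where there are more, so that the start is position 251 counted from 1 at the 5′ end. It is read 5′ to 3′ on the gene's strand, and capitals mark TATAAA, the letters of a TATA box, or CATTCCT, those of an M-CAT element, on either strand.
Myh6 promoter, chr14:54966558-54966857: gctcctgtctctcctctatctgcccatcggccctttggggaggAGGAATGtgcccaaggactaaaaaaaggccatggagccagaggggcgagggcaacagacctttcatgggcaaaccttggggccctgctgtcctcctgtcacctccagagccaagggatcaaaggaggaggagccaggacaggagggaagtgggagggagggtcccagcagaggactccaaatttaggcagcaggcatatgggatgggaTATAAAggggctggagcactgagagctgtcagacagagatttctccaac
Myh7 promoter, chr14:54994577-54994876: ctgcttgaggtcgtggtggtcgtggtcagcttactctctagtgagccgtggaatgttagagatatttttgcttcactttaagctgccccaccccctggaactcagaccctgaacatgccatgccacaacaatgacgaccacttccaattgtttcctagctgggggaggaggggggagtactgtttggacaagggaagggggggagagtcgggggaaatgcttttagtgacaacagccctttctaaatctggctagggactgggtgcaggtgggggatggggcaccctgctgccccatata
Actc1 promoter, chr2:114052826-114053125: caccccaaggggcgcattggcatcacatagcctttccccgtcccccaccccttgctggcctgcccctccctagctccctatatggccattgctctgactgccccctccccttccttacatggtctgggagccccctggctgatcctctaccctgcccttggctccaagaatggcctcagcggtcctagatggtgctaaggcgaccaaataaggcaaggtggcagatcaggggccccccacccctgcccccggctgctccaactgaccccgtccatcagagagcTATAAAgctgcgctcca
The Myh6 window holds the M-CAT letters at position 44, before the listed start, and TATAAA at position 252, after it. Its start, 54966607, lies inside the printed span of Myh6, whose upstream end is 54968017. The Actc1 window holds TATAAA at position 284, also after the listed start. The first of 2 listed Myh7 windows holds neither, nor GGGCGG, the letters of a GC box, which says only that these letters are not in this stretch.

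Among all 15312 promoters of matched symbols, TATAAA occurred in 13.6%, GGGCGG in 46.4% and CATTCCT in 4.47%, on either strand. Of the 30 leading rows 23 had a promoter in the table. Of these, 26.1% (6) held TATAAA, 17.4% (4) GGGCGG and 21.7% (5) CATTCCT. Rows with a median between 1 and 100 FPKM held them in 6.69%, 67.0% and 3.86%, and rows at 0 in every library in 28.2%, 10.1% and 5.47%. For the first 2 motifs the leading rows were nearer to the rows at 0, and for CATTCCT they were above both. With 23 promoters these shares are a description. In 26 paralog pairs with both promoters, TATAAA was found in 5 higher and 5 lower members, GGGCGG in 10 and 15, and CATTCCT in 3 and 2. In the 21 of these pairs with the same order in every library, GGGCGG was found in 6 higher and 12 lower members, and the other counts were the same.

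Actc1 held 92.3% of the actins (91.4% to 93.7%). Acta1, the skeletal actin that is also made in the young and the stressed heart, was at 276 FPKM, with 461 and 473 FPKM in controls 3 and 4 against 197 to 277 in the other 4. The ratio of Actc1 to Acta1 was 4.99 ± 0.46 on the log2 scale; the coding parts of these genes are near-identical, so their split is uncertain. Actb at 229 FPKM, Actg1 at 128 and Acta2, the smooth muscle actin, at 92.5 followed, with Actg2 at 1.24. The troponins were close to single-gene families: Tnni3 led Tnni1, the slow skeletal and fetal form, by 12.22 ± 0.20, and Tnnc1 led Tnnc2 of fast fibres by 11.95 ± 0.47. Tnnt2 held 99.996% of the troponin T measured, Tnnt1 not being analysed here. Myl3 led Myl4, the atrial and fetal light chain, by 11.51 ± 0.28; Myl6 was at 220 FPKM and Myl1, the fast skeletal chain, at 31.8 (24.2 to 62.8). Of the regulatory light chains Myl2 was not analysed here, and the non-muscle Myl12a led the rest at 446 FPKM, with Myl12b at 62.9 and Myl9 at 43.7.

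Tpm1 held 97.2% of the tropomyosins and led Tpm2 by 7.82 ± 0.26; Tpm4 was at 58.4 FPKM, Tpm2 at 10.9 and Tpm3 at 5.95. Mybpc3, cardiac myosin-binding protein C, at 1146 FPKM (977 to 1229), held 99.6% of its family, with Mybpc2 at 4.23. At the Z-disc Actn2, muscle alpha-actinin, was at 863 FPKM (807 to 904) and led Actn4 of non-muscle cells, at 31.5, by 4.69 ± 0.25. Fhl2, a LIM protein of the heart, at 1282 FPKM (1089 to 1387), led Fhl1 at 38.1 by 5.01 ± 0.17, and Fhl3 was at 5.15.

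Of the calcium-cycling genes, those of the pump and the release channel were led by 1 paralog each, while calmodulin and CaM kinase mRNAs were split. Atp2a2, which pumps calcium back into the reticulum, was at 2534, 3022, 2383, 3036, 3136 and 1794 FPKM in controls 1 to 6; control 6 was the lowest. It held 99.8% of the SERCA family, and led Atp2a3 at 5.46 FPKM by 8.66 ± 0.50. Its inhibitor Pln, at 2939 FPKM (2616 to 3039), led Sln, the atrial and skeletal inhibitor, by 11.43 ± 0.18; Sln was above 0 only in control 3, at 0.271 FPKM. Mrln, the skeletal micropeptide myoregulin, was at 1.44 FPKM. Ryr2, the release channel, was at 82.4 FPKM (46.5 to 91.5, the lowest in control 6) and led Ryr1 by 6.19 ± 0.37. Casq1, the skeletal calsequestrin, was at 5.16 FPKM; Casq2 was not analysed here. Of the genes for calmodulin, the calcium sensor, Calm2 was at 106 FPKM and Calm3 at 79.0. Of the CaM kinases, Camk2g at 15.9 FPKM (12.2 to 17.8) and Camk2d, the main cardiac isoform, at 14.3 (12.8 to 16.1) were not told apart, at -0.07 ± 0.14 and an adjusted p of 0.448 in the exact permutation test. Camk2a was at 11.5 FPKM and Camk2b at 3.33.

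Ion channel and connexin genes lay lower, with Gja1 the highest of those described. The sodium pump's measured beta subunits were led by Atp1b1 at 140 FPKM over Atp1b2 at 7.86. Gja1, connexin 43 of the ventricular gap junction, at 154 FPKM (139 to 172), led Gja5 of atrium and conduction system, at 3.78, by 5.02 ± 0.26, with the endothelial Gja4 at 8.40. Cacna1c, the L-type calcium channel, at 17.1 FPKM (9.87 to 19.8), led Cacna1d by 3.82 ± 0.30; Cacna1s of skeletal muscle was at 3.89, and the T-type channels Cacna1g and Cacna1h were at 2.01 and 1.98. The lowest value of Cacna1c was in control 6.

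Among the inward rectifiers measured, Kcnj11, the pore of the ATP-sensitive channel, led at 64.7 FPKM (42.8 to 67.7), followed by Kcnj5 of the acetylcholine-gated channel at 20.9. Kcnj3, Kcnj8 and Kcnj14 were not analysed here. Kcnj12 at 11.5 FPKM and Kcnj2 at 9.19, which both carry the resting current, were not separated, at -0.26 ± 0.27 for Kcnj2 over Kcnj12 and an adjusted p of 0.0712 in the exact permutation test, 5 of 6 libraries having Kcnj12 higher. The voltage-gated potassium channels measured were led by Kcnh2 at 24.5 FPKM and Kcnq1 at 15.2, and included Kcna5 at 8.97, Kcnd2 at 6.63 and Kcna7 at 4.72. Kcnd3 was not analysed here. Hcn2 at 12.98 FPKM led Hcn4, the pacemaker channel of the sinus node, at 1.09, by 2.91 ± 0.16.

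Of the receptors for nerve and hormone signals, Adrb1, through which noradrenaline drives rate and force, was at 9.69 FPKM (6.50 to 11.3). Adra1b at 9.41 FPKM led Adra1d at 2.08 and Adra1a at 1.75 by FPKM, while by reads Adra1a came first. Chrm2, the muscarinic receptor that slows the heart, was at 23.3 FPKM (15.6 to 28.3) and held 98.6% of the muscarinic receptors measured. Agtr1a, the angiotensin receptor, was at 20.7 FPKM, Ednra and Ednrb for endothelin at 10.9 and 3.83, and Npr1 and Npr3 for natriuretic peptides at 8.80 and 4.40. The peptides themselves were far more abundant and more variable. Nppa was at 503, 364, 726, 1474, 410 and 1050 FPKM in controls 1 to 6, and Nppb, the brain natriuretic peptide, at 164, 125, 303, 311, 259 and 634. Control 4 was highest in Nppa and control 6 in Nppb, and the 2 genes, neighbours on chromosome 4, kept the order Nppa over Nppb in every library with a log2 ratio of 1.34 ± 0.59.

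Steroid receptors were led by Nr3c1, the glucocorticoid receptor, at 12.8 FPKM (11.7 to 14.0), then Nr3c2, the mineralocorticoid receptor, at 4.32 (1.78 to 4.73). Gper1, the G-protein-coupled oestrogen receptor, was at 0.737 FPKM and Esr1, oestrogen receptor alpha, at 0.115 (0.0426 to 0.341). Pgr, the progesterone receptor, was above 0 in control 1 alone. Bmpr1a, a type I receptor for bone morphogenetic proteins that AMH also uses, was at 14.5 FPKM (13.1 to 16.9), and Acvr1, another, at 5.46 (4.79 to 5.88).

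For fuel, Fabp3 held 89.98% of the fatty acid-binding proteins (83.6% to 93.6%). Fabp4 of capillary endothelium and fat was at 794 FPKM (596 to 1285), 3.31 ± 0.38 below Fabp3 on the log2 scale, Fabp5 at 47.2, and Fabp7 at 1.21 (0.727 to 7.52). The lowest share of Fabp3 was in control 6, where Fabp1 stood at 352 FPKM, 3.34% of the family. Fabp4 at 1285 FPKM and Fabp5 at 83.6 were highest in that library too. Cpt1b, the muscle form of the enzyme that admits fatty acids to mitochondria, at 290 FPKM (263 to 329), led the liver form Cpt1a, at 13.8, by 4.32 ± 0.17; Cpt1c was at 1.19. Acsl1, which activates fatty acids, at 151 FPKM, held 91.7% of its family (83.9% in control 6, 91.0% to 93.7% in the others), with Acsl5 at 6.85, Acsl4 at 2.67, Acsl6 at 2.18 and Acsl3 at 1.72.

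Of the glucose transporters, Slc2a4, the insulin-responsive form, at 186 FPKM (145 to 197) exceeded Slc2a1, at 8.96, by 4.18 ± 0.14; Slc2a8 was at 12.4. Hk2 at 78.2 FPKM led Hk1 at 38.8 by 0.92 ± 0.13. Pfkm at 368 FPKM led Pfkl at 36.1 by 3.26 ± 0.14, with Pfkp at 14.5. Pgam2 at 777 FPKM (748 to 1071) led Pgam1 by 5.27 ± 0.30, and Eno3, muscle enolase, was at 635 FPKM (593 to 663). Ldhb, the lactate dehydrogenase chain of heart, was at 1631, 1657, 1762, 1695, 1652 and 1671 FPKM in controls 1 to 6. Ldha, the chain of fast muscle, was at 402 to 445 FPKM, and Ldhb led by 2.01 ± 0.08, with a smaller SD than all but 3 of the 41 pairs.

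Pdk2, which turns pyruvate dehydrogenase down, was at 227 FPKM (171 to 250), and Pdk1 at 41.3, with Pdk3 at 1.32. Pdk4, the form induced by fasting, was the most uneven of them, at 60.9, 115, 61.8, 64.3, 160 and 30.2 FPKM in controls 1 to 6, so that Pdk2 held from 52.6% of the family in control 5 to 73.6%. Ckm at 2104 FPKM (1957 to 2255) led Ckb, the brain form, by 5.70 ± 0.31, and Ckmt2, sarcomeric mitochondrial creatine kinase, was at 1707 FPKM (1588 to 1893). Prkag1 at 80.9 FPKM held 90.9% of the AMPK gamma subunits, Prkag2 being at 6.99 and Prkag3 at 1.05. Prkaa1 was at 2.74 FPKM; Prkaa2 was not analysed here.

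Cytochrome oxidase, the last complex of the respiratory chain, has several subunits with a heart and muscle form and a form found elsewhere. The heart form led in each, in every library. Cox6a2 was at 3134 FPKM (3006 to 4212) and Cox6a1 at 190 (166 to 249), a ratio of 4.08 ± 0.06. Cox7a1 was at 2337 (2078 to 2985) and Cox7a2 at 733 (651 to 907), a ratio of 1.69 ± 0.09, with Cox7a2l at 230. Cox8b was at 1849, 1856, 2248, 2094, 2018 and 2658 FPKM in controls 1 to 6, and Cox8a at 260, 265, 317, 306, 266 and 349. The ratio of Cox8b to Cox8a, 2.84 ± 0.06, varied little although both were highest in control 6. Cox4i1 exceeded Cox4i2, the lung form, by 9.25 ± 0.23, and Cox6b1, at 2021 FPKM, held 99.7% over Cox6b2, the testis form. The promoters of Cox8b (chromosome 7) and Cox8a (chromosome 19) are shown as those of the pair with the steadiest ratio, with TATAAA in capitals.
Cox8b promoter, chr7:140900397-140900696: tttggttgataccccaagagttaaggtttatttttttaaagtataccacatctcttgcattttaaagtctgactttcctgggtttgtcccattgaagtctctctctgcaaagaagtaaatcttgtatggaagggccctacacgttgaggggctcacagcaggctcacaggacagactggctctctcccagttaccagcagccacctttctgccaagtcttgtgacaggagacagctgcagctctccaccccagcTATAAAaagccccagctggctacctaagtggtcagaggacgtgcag
Cox8a promoter, chr19:7217567-7217866: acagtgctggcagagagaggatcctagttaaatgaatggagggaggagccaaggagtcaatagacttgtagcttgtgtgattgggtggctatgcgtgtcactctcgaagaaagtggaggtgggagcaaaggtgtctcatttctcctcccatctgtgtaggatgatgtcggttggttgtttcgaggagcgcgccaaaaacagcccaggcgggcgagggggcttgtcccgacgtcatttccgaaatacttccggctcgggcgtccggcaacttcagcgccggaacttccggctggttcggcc
Both lie on the minus strand of GRCm38.p6. The Cox8b window holds TATAAA at position 255 from its 5′ end, after the listed start, and the Cox8a window none of the 3 motifs searched.

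Slc25a4, which exchanges ADP for ATP across the inner membrane, held 96.6% of the carriers measured and led Slc25a5, at 243 FPKM, by 4.84 ± 0.11. Subunit c of ATP synthase, one protein from 3 genes, was split among Atp5g3 at 2751 FPKM (62.5% of the family), Atp5g1 at 1295 and Atp5g2 at 375. The uncoupling proteins were not ordered: Ucp2 was at 35.1 FPKM (24.8 to 42.3), Ucp3, the muscle form, at 26.0 (11.1 to 46.5), and Ucp1 of brown fat at 0 in every library. Ucp3 was higher in controls 2 and 4, and the adjusted p of the exact permutation test was 0.169.

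Muscle-specific partners of the general translation machinery were abundant. Eef1a2, the elongation factor of muscle and neurons, was at 832, 815, 763, 983, 796 and 607 FPKM in controls 1 to 6, and the general Eef1a1 at 565, 529, 551, 422, 621 and 789. Control 6 alone had Eef1a1 higher, and the pair did not pass (log2 ratio 0.47 ± 0.51, adjusted p = 0.104, exact permutation test; log2 ratio 0.64 without control 6). Rpl3 at 168 FPKM led Rpl3l, its striated muscle form, at 105 (100 to 109), by 0.69 ± 0.20 per length, while Rpl3l came first by reads. Reads of Eef1a1 and Rpl3 can be shared with processed copies, so both levels are uncertain. Among the small heat shock proteins Cryab was at 1804 FPKM (1585 to 2268), Hspb7 at 1079, Hspb6 at 706, Hspb8 at 368, Hspb1 at 253, Hspb2 at 123 and Hspb3 at 15.4; by reads Hspb7, with the longer row, came first, with 40.2% of the family against 31.5% for Cryab. Hsp90ab1 at 684 FPKM (657 to 723) held 77.9% of its family, ahead of Hsp90b1 at 156 and Hsp90aa1 at 37.7.

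Among transcription factors the leading member held less than 60% of the MEF2, T-box and PPAR families. Gata4 at 33.5 FPKM (28.0 to 34.9) exceeded Gata6 at 23.4 by 0.53 ± 0.11 in 6 of 6 libraries. Mef2d at 34.0 FPKM and Mef2a at 32.7 were not told apart, at -0.04 ± 0.12 for Mef2a over Mef2d and an adjusted p of 0.469 in the exact permutation test; Mef2c was at 12.1. Tbx20 at 12.6 FPKM led Tbx5 at 6.51, Tbx2 at 3.80 and Tbx3 at 3.74. Ppard at 8.85 FPKM and Ppara, the regulator of fatty acid burning, at 8.28 were likewise close, at -0.09 ± 0.17 for Ppara over Ppard and an adjusted p of 0.296 in the exact permutation test, with Pparg at 3.17. Of the oestrogen-related receptors Esrrb was at 8.70 FPKM and Esrrg at 4.72, Esrra not being analysed here.

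Other cell types of the heart were seen through their markers. All 9 measured endothelial markers were at 1 FPKM or more, Fabp4 first, then Egfl7 at 80.1 FPKM (62.8 to 98.5), and Cdh5, VE-cadherin of endothelial junctions, at 60.8 (36.7 to 69.9). All 8 fibroblast markers were too, led by Gsn at 381 FPKM (259 to 455) and Dcn, decorin, at 199 (110 to 243). Rgs5 of pericytes was at 111 FPKM (83.8 to 186), and Lyz2 of macrophages at 94.6 (60.9 to 121). Control 4 had the lowest summed level of the endothelial, fibroblast and macrophage lists, 827, 458 and 131 FPKM against medians of 1145, 717 and 186. In bulk tissue fewer cells of a type and less RNA per cell cannot be told apart. Lymphocyte, neutrophil and mast cell lists summed to 8.42 and 18.2 FPKM at most. The leading red cell marker, Hbb-bs, was at 408 FPKM (269 to 746) and Hba-a1 at 232 (170 to 424); adult globin copies are near-identical and their split is uncertain. Cidea, listed for brown fat, was at 35.0 FPKM (27.4 to 36.4), but Ucp1 was at 0 in every library and Dio2 at 0.178.

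Matrix genes were moderate. Col3a1 at 24.9 FPKM (11.1 to 26.3), Col1a2 at 16.0 and Col1a1 at 12.1 (8.28 to 15.3) formed the fibrillar collagens with Col5a2 at 4.26, Col5a1 at 3.91 and Col5a3 at 1.45; Col1a1 lay below Col3a1 in 6 of 6 libraries by a log2 ratio of -0.80 ± 0.23. The basement membrane chains Col4a1 at 45.2 FPKM and Col4a2 at 44.7 led by turns, as did the laminins Lama4 at 16.3 and Lama5 at 15.9, with Lama2 of muscle at 11.4. Cav1 at 130 FPKM (94.1 to 199) led the muscle caveolin Cav3 at 68.4 (60.2 to 72.9) and Cav2 at 18.7. Vegfb at 272 FPKM (257 to 287) exceeded Vegfa at 80.2, Vegfc at 7.33 and Pgf at 2.25.

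Most rows varied little between the hearts. The coefficient of variation (CV, SD over mean) had a median of 13.4% over the 10751 rows with a median of at least 1 FPKM, where counting error alone would give 5.17%. Without control 6 it was 10.7% over the same rows. In 125 rows the CV was over 50%, 61 of them highest in control 6, 39 in control 5 and 10 in control 1. Over all 10751 rows the highest library was control 6 in 25.9%, control 5 in 13.1% and control 1 in 26.3%. Without control 6 the rows with a CV over 50% numbered 89. Rows of at least 10 FPKM in a library and over 3 times the median of the other 5 numbered 87 in control 6, 10 in control 5, 1 in control 2 and none in the other 3.

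**Figure D5:**
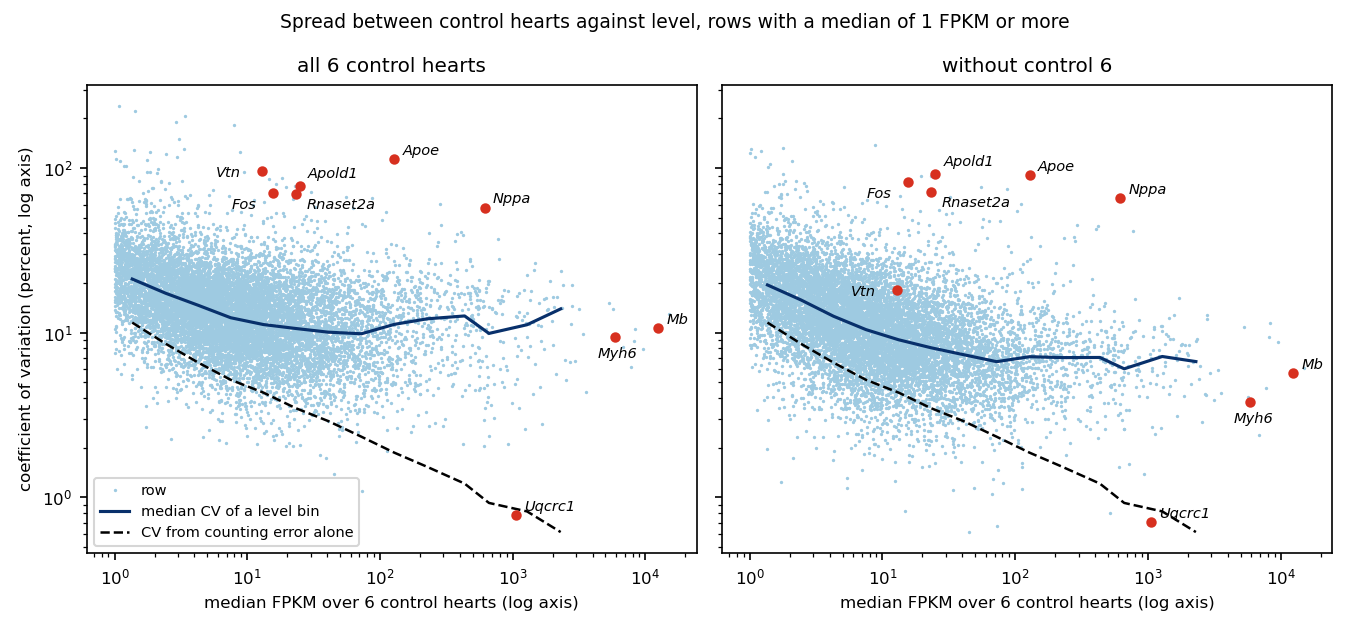
CV (log axis) against median FPKM (log axis) for the 10751 rows with a median of 1 FPKM or more, over 6 libraries (left) and without control 6 (right); the solid line is the median CV of a level bin and the dashed line the CV from counting error alone. Vtn drops from 96.1% to 18.2% without control 6, while Apoe goes from 113% to 90.3%, Apold1 from 77.6% to 91.4% and Fos from 71.0% to 82.6%, and Uqcrc1 lies near the counting line.

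The widest spread among rows of at least 10 FPKM belonged to Apoe, at a CV of 113% and 90.3% without control 6. Vtn, vitronectin, Adh1, alcohol dehydrogenase, and Mgst1, a microsomal glutathione transferase, all strong in liver, had CVs of 96.1%, 86.5% and 71.3%, and of 18.2%, 15.4% and 18.4% without control 6. Inmt, a methyltransferase, was at 17.2, 5.56, 14.8, 4.80, 14.3 and 44.0 FPKM in controls 1 to 6, and complement C3 at 26.5, 11.6, 19.2, 6.69, 14.0 and 56.4. Both were highest in control 6 and lowest in control 4.

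A further set was highest in control 5. It included the immediate-early genes Fos, Egr1, Nr4a1 and Btg2, which cells switch on within minutes of a stimulus, the kinase gene Sik1, Apold1 of endothelium and Cldn5, a claudin of endothelial junctions. Fos was at 10.4, 14.9, 16.4, 7.64, 47.0 and 33.1 FPKM in controls 1 to 6. Nr4a1 was at 7.52, 26.0, 20.04, 10.5, 64.5 and 30.8, and Apold1 at 6.76, 30.7, 19.2, 7.18, 62.7 and 39.8. Controls 1 and 4 were the lowest for all 3, and for Egr1 (22.0 and 20.7 FPKM, against 83.4 to 152). Cldn5 ran from 10.1 FPKM in control 4 to 62.3 in control 5, Btg2 from 25.2 in control 1 to 137 in control 5, and Sik1 from 8.80 in control 4 to 38.2 in control 5. Otud1, a deubiquitinase, and Rnaset2a, a ribonuclease, were at 66.1 and 75.7 FPKM in control 5 against 17.3 to 27.4 and 19.4 to 24.8 elsewhere. Rnaset2a has a near-identical neighbour, which leaves its level uncertain.

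At the other end Uqcrc1, a core subunit of respiratory complex III, was at 1058, 1051, 1065, 1052, 1046 and 1066 FPKM, a CV of 0.776% where counting error alone gives 0.661%. Eif4h, a translation initiation factor, at 72.9 FPKM had a CV of 1.09%, and Afap1l1, an actin-filament-associated protein, at 44.8 FPKM one of 1.39%. The next were Ubl7, Laptm4b, Dazap2, Prcc, Sqor, Ndufa10 of complex I and Setd3, the actin histidine methyltransferase, with CVs from 1.74% to 2.08%. Of these 10, Uqcrc1, Dazap2 and Ndufa10 had a CV above their counting error and the other 7 lay below it. Without control 6 Afap1l1, Eif4h and Uqcrc1 had the smallest CVs, 0.614%, 0.670% and 0.708%, followed by Pkm, Zranb2, Timm44, Hnrnpc, Btf3, Sec13 and Hnrnpab with 0.799% to 1.22%. These libraries are among those already used, so this is no independent check. Rows picked for the smallest CV among many have a low CV partly by that choice. Among the abundant muscle genes Ldhb, at a CV of 2.78%, Atp5b at 4.37% and Ckm at 5.57% were steady over all 6 libraries.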

How the data were processed

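The labels' protocols name mirVana RNA extraction and a TruSeq stranded mRNA kit. Software named in the submitters' processing notes is DESeq2 1.18.1, R 3.4.1, HTSeq 0.13.5, HISAT2 2.2.1, Trimmomatic 0.38 and FastQC 0.11.9, with genome build mm10; settings, strand and annotation are not given in the sources used here. The authors deposited FPKM per RefSeq transcript row, used as they stand. Symbols, positions and promoters came from RefSeq tables of GRCm38.p6: 13175 rows matched by versioned accession, 5903 by another version, and 2800 had no symbol (87.2% matched). Rows without a symbol held 8.86% of the summed FPKM.

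The FPKM of a row move in steps of 1 read. All 15324 rows above 0 in at least 3 control libraries gave whole reads, within 0.02 of a whole number, and 15323 a whole length, which also fixed each library total. The step was tested on simulated data. Counting error is Poisson and covers counting only. FPKM is relative to the library total, so abundant rows shift the rest.

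Families, pairs and marker lists were chosen with earlier results of these data known. Genes named are the 30 rows of highest median, family members at 1 FPKM or more with the leader and next, the 10 most and least variable rows of at least 10 FPKM with and without control 6, leading markers and those reaching 3 times their median, and Alb and Apoe; Ttn, Pgr, Ucp1 and other low members were added after their values were seen. Some genes that this rule names are not reported here. Pair ratios used a pseudocount of 1. Of 51 pairs, 41 were tested: both members needed a row and 1 of them a median of at least 1 FPKM. Alternatives were leaving out libraries, means, TPM and median-ratio scaling, shares of reads, other filters and a pseudocount of 0.1. Python 3.11.15, numpy 2.4.6, pandas 2.3.3 and scipy 1.17.1 were used.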

Additional observations from a re-analysis of the deposited data

Results flagged for a closer look

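In each of 132 sets of 6 values (levels, family shares, marker sums and library measures), the highest or lowest library was compared with its nearest neighbour by Dixon's gap ratio at its 95% critical value. Chance would flag about 1 in 20 sets chosen without regard to their values. Many of these sets were chosen on the same libraries, for a high level or for a large or small spread. The number of flags is therefore a description and not a test. Of the 34 sets with a library that far from the others, 30 had control 6, 3 control 5 and 1 control 3.

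Short abundant rows were highest in control 6: Slc25a4 at 8135 FPKM, Tnni3 at 7740, Cox6a2 at 4212, Cox6c at 3658, Ndufa4 at 3624, Atp5g3 at 3431, Tpt1 at 3069, Atp5j2 at 2800 and Cox5b at 2797. In the other 5 libraries Slc25a4 was at 6629 to 7016 FPKM and Ndufa4 at 2320 to 2619. Genes strong in liver were highest there too: Alb at 852 FPKM, Apoe at 486, Mgst1 at 95.6, Adh1 at 76.4, Vtn at 56.0 and Inmt at 44.0. Summed marker levels of control 6 were 2694 FPKM for hepatocytes, 407 for smooth muscle and pericytes against 276 to 313, and 11.8 for adipocytes against 0.0854 to 2.28. Of the smooth muscle and pericyte sum, Rgs5 alone made up 186 FPKM, and not every member of that list was highest in control 6.

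Rows steady in the other 5 libraries also left their range in control 6. Pkm at 466 FPKM and Zranb2 at 12.5 lay below it. Btf3 at 130 FPKM, Hnrnpab at 101 and Hnrnpc at 40.2 lay above; these 5 rows were picked for a small spread without control 6, so the gap is wide by that choice.

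Family shares in control 6 were 85.1% for Pfkm, 97.2% for Ckm, 83.9% for Acsl1 and 71.6% for Hsp90ab1, each the lowest. The shares of Rpl3 at 67.8%, Calm2 at 50.4% and Lama4 at 47.0% were each the highest. Outside control 6, Otud1 at 66.1 FPKM, Rnaset2a at 75.7 FPKM and the share of Cox6a2 at 94.9% were highest in control 5, and the share of Slc25a4, 97.1%, in control 3.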

How the results depend on the processing

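No paired analysis was possible because only the control group enters these values. Exact tests of pairs without a library cannot pass, since 5 libraries allow no p under 0.0625.

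By reads instead of FPKM the 10 leading rows held 14.4% and 18 of the 30 leading rows stayed; with only rows that have a symbol the 10 held 16.3%, against 17.3% of all FPKM. The leader changed by reads in 8 families, the FPKM leader then holding 45.1% (Adra1b), 21.1% (Camk2g), 45.7% (Ucp2), 45.3% (Rpl3), 23.7% (Calm2), 31.5% (Cryab), 22.3% (Ppard) and 22.1% (Lama4). Leaving out libraries also changed the leader: of MEF2 without control 4 (Mef2d 42.8%, 44.4% at most without another), of collagen IV without control 3 or 4 (Col4a1 45.1%), without 6, or without 2, 5 and 6 (45.01%), and of laminin alpha without 3 or 6 (Lama4 33.2%) or without 4 (35.4%). Ppard lost the lead without controls 2 and 5 (41.3%) and without 2, 5 and 6 (41.9%), where the log2 ratio of Ppara to Ppard turned to 0.0029 and 0.014. The other 38 of 48 families and 40 of 41 pairs kept their direction under every alternative run, and a pseudocount of 0.1 left 35 pairs past the threshold.

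The median CV of 13.4% became 10.7% to 14.1% with 1 library left out (lowest without control 6), 14.2% without controls 2 and 5, 10.8% without 2, 5 and 6, 10.7% and 17.4% with filters at a median of 10 and above 0 FPKM, and 13.1% after median-ratio scaling; range over median gave 36.1%. The 125 rows with a CV over 50% became 78 without controls 2, 5 and 6, 28 and 2558 with those filters, and 84 to 155 with 1 library left out, the filter being applied anew. The cause of these changes was not tested. Depth limits low levels: Alb at 0.0699 FPKM in control 2 was 2 reads.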

Other observations

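Markers of the outer covering of the heart and of white fat were low and uneven. Upk3b, an uroplakin of mesothelium, was at 5.45, 0.319, 3.22, 0, 0.124 and 6.54 FPKM in controls 1 to 6. Cfd, adipsin of fat cells, was at 1.40, 0.0777, 1.52, 0.0854, 0.0909 and 7.14 FPKM, and Adipoq, adiponectin, at 0.435, 0.0585, 0.115, 0, 0 and 1.77. These 3 genes were named after their values were seen. Controls 1, 3 and 6 were the 3 highest libraries for 4 of the 5 mesothelial and epicardial markers, for 3 of the 5 adipocyte markers and for 1 of the 6 atrial markers, Myl7. The exceptions included Wt1, at 3.35 FPKM in control 6 and 2.94 in control 5, with 2.05 in control 3, and Cidec and Retn of fat, with control 3 below control 5. Many of these levels rest on few reads: Adipoq in control 3 was 2 reads and in control 2 was 1.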
